A study of Homo sapiens with 12 samples.

Results

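The genes of sterol synthesis and its SREBP2 control were followed in THP-1, a human line derived from monocytic leukaemia and labelled here as macrophages. The members are 29 of the 58735 genes in the deposited count table, chosen by symbol: 20 enzymes from acetyl-CoA to cholesterol, 5 regulators of the SREBP transcription factors, and 4 genes of cholesterol transport and storage. All 29 were found in GENCODE 29 and all 29 passed the filter on low counts. The 6 libraries of the first group came from cells transfected with an miR-122-5p mimic, an RNA that stands in for that microRNA, and the 6 of the second from cells given a control miRNA mimic. Both groups were transfected at 30 nM with RNAimax for 24 h, rested, and stimulated with lipopolysaccharide (LPS) for 4 h, so that no unstimulated or untransfected cells enter the comparison. The labels do not say whether the 6 libraries of a group are separate cultures, so the p-values reflect the spread between libraries, which may be technical.

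Cholesterol is built from acetyl-CoA through mevalonate, isoprenoid diphosphates, squalene and lanosterol. When the endoplasmic reticulum holds little sterol, SCAP escorts the SREBP proteins to the Golgi, where proteases release the factor that activates the genes of this pathway; INSIG proteins hold SCAP back when sterol is plentiful. Macrophages also take up cholesterol, release it from lysosomes through NPC1 and NPC2, and store it as esters made by SOAT1. The liver is the tissue best known for miR-122, where its inhibition lowers the expression of cholesterol synthesis genes in mice.

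The transfected microRNA is shown with its seed, bases 2 to 8, in capitals, because the seed is what a target site pairs with. It is given from RefSeq on GRCh38.p14 (chr18:58451088-58451109, plus strand).
hsa-miR-122-5p: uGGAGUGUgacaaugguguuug

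None of the 29 members carried a full seed match in its longest annotated 3′ UTR, that is, 0 held ACACTCC with or without a following A. Among 12874 tested genes with an annotated 3′ UTR, 8.96% held one. The weaker 7-base match CACTCCA, which pairs with bases 2 to 7 and has an A opposite base 1, was found in 3 members (10.3%, against 14.97% of tested genes as their strongest match). Those of SOAT1 are shown as examples of the match, which is in capitals, in the letters of the transcript strand (hg38, GENCODE 29). The first site of SOAT1 began 104 bases after the stop codon and the second 127 bases after it.
SOAT1 first site: gttatttggacCACTCCAggctttacag
SOAT1 second site: tacagatgactCACTCCAttcctaggtc
The letters alone do not show that a site is used.

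Promoters were searched for the sterol response element TCACNCCAC, for CCAAT, the word bound by NF-Y, and for GGGCGG, the GC box bound by Sp1; the last pair are known partners of SREBP at these genes. The window ran from 250 bases before to 50 bases after each RefSeq start, on both strands, and 26 members had 35 such promoters. FDFT1, SQLE and ACAT2 had none in the table. The element TCACNCCAC was found in 1 member, SREBF2, against 1.52% of 10640 tested genes. CCAAT was found in 19 of 26 members (73.1%), against 42.6% of tested genes, and the GC box in 24 of 26 (92.3%), against 75.7%. At least 3 CCAAT words in 1 promoter were found in 7 of 26 members (26.9%), against 5.44% of tested genes. Only exact words were counted, so an element that differs from TCACNCCAC by a base was missed. A match describes the letters of the window and is not a measured binding site.

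The stretches that hold these words are printed from RefSeq (GRCh38.p14) on the gene's strand, 5′ to 3′, with CCAAT or its complement ATTGG in capitals, for the called enzymes whose libraries did not overlap between groups and whose promoter held at least 3 words. The other called enzymes without overlap held fewer words: 0 in PMVK and CYP51A1, 1 in TM7SF2 and at most 2 in DHCR7. IDI1, which was not called, held 3 in 1 promoter. At least 3 words were held by 6 of 14 members called higher, 1 of 10 not called and 0 of 2 called lower. A link between these words and the fold changes was not tested. Positions are counted back from the RefSeq start. In NSDHL a pair of words overlap, on opposite strands. In the SREBF2 stretch, -178 to -80, the capitals mark the sterol response element and 1 CCAAT word.
MVK (chr12:109573574-109573762, plus strand, -220 to -32): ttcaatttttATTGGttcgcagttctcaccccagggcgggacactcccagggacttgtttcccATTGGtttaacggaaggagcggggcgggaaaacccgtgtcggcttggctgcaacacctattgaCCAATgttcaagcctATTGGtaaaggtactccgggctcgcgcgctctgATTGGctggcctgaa
MVD (chr16:88663162-88663260, minus strand, -169 to -71): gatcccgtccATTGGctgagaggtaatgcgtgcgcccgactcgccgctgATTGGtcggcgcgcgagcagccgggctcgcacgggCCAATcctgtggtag
FDPS (chr1:155308680-155308829, plus strand, -186 to -37): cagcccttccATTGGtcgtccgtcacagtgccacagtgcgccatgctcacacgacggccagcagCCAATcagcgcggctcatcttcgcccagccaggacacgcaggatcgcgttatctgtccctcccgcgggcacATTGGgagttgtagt
NSDHL (chrX:152830825-152830993, plus strand, -238 to -70): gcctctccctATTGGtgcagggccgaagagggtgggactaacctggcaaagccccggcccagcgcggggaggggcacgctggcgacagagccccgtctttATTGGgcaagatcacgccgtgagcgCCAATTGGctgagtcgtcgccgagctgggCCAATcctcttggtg
EBP (chrX:48521607-48521792, plus strand, -201 to -16): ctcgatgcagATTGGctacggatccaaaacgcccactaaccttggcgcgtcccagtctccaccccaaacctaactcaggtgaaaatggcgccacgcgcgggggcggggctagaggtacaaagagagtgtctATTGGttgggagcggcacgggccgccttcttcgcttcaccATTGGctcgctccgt
SREBF2 (chr22:41832927-41833025, plus strand): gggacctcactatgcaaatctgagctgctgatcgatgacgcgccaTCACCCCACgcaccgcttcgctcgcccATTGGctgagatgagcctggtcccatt

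Library totals ran from 29473750 to 39468157 counts. Of 15471 tested genes, 50.5% were called, a call being an adjusted p under 0.05 by the quasi-likelihood test of edgeR, Benjamini-Hochberg adjusted across them. Fold changes followed the GC content of transcripts: the slope of a library's log2 CPM on GC content, per 10 percentage points, was 0.0337 to 0.229 with miR-122-5p and -0.318 to 0.0121 in control libraries. These ranges do not overlap, so the GC trend and the mimic cannot be told apart. Each member is therefore given with its log2 fold change when each library's GC and length trends are removed (the GC and length fit) and when its GC slope is a covariate (the GC slope fit). The GC slope fit called fewer of all tested genes (7.25% higher and 12.2% lower). The end of a call there does not by itself show a smaller change. Control libraries 1 and 6 stood apart from the rest on principal components. Of the 7 macrophage markers, summed at 1102 to 1280 CPM with miR-122-5p and 1106 to 1369 in control libraries, CD68, 85.8% of whose exon bases lie in other genes, and FCGR3A were close to 0 (under 0.3 CPM on average). The rest averaged above 10 CPM and did not move together: CD14 (-0.39 ± 0.09, adjusted p = 0.000723) and CSF1R (-0.36 ± 0.07, adjusted p = 0.000133) fell, below every control library in all 6 miR-122-5p libraries, while ITGAM rose (0.19 ± 0.06, adjusted p = 0.0138), which it did not in the GC slope fit (-0.01, adjusted p = 0.962). CD14, CSF1R and SPI1 were called lower in both the GC and length fit and the GC slope fit. SPI1 stood at -0.33 in each, against 0.17 (adjusted p = 0.108) without correction. LYZ was not called without correction (0.10, adjusted p = 0.537) and was called higher in the GC and length fit (0.31, adjusted p = 0.0280). The part of these markers in the results was not tested. The T cell markers CD3D and CD3E were at 0 in all 12 libraries. Of 3 hepatocyte markers, ALB and TTR were near 0 (at most 10 and 6 counts); the list summed to 11.2 to 13.9 CPM with miR-122-5p and 6.45 to 8.63 in control libraries, nearly all of it APOA1. Its part in the results was not tested.

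Per kilobase of exon, the members spanned a wide range. SQLE, which makes the epoxide of squalene, stood at 208.6 ± 12.7 RPKM with miR-122-5p and 219.0 ± 17.8 in control libraries (SD, n = 6 in each group). Next came the lysosomal cholesterol carrier NPC2, at 204.9 ± 13.2 RPKM with miR-122-5p and 153.7 ± 22.6 in control libraries. INSIG1 stood at 152.6 ± 10.7 RPKM with miR-122-5p and 163.5 ± 24.9 in control libraries. SQLE and NPC2 did not differ beyond their spread with miR-122-5p, nor did NPC2 and INSIG1 with the control mimic. EBP and FDFT1 were level with miR-122-5p (61.1 ± 7.11 and 61.0 ± 4.13 RPKM), but not with the control mimic (36.2 ± 2.36 and 53.3 ± 3.35). The mevalonate kinase MVK, SCAP, HSD17B7 and CYP51A1 were at the low end, each under 3 RPKM in both groups. The level of CYP51A1 is uncertain, since 83.2% of its exon bases are also annotated to other genes, mainly AC000120.2 and AC000120.3 on the same strand, which had 0 counts in every library.

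**Figure D1:**
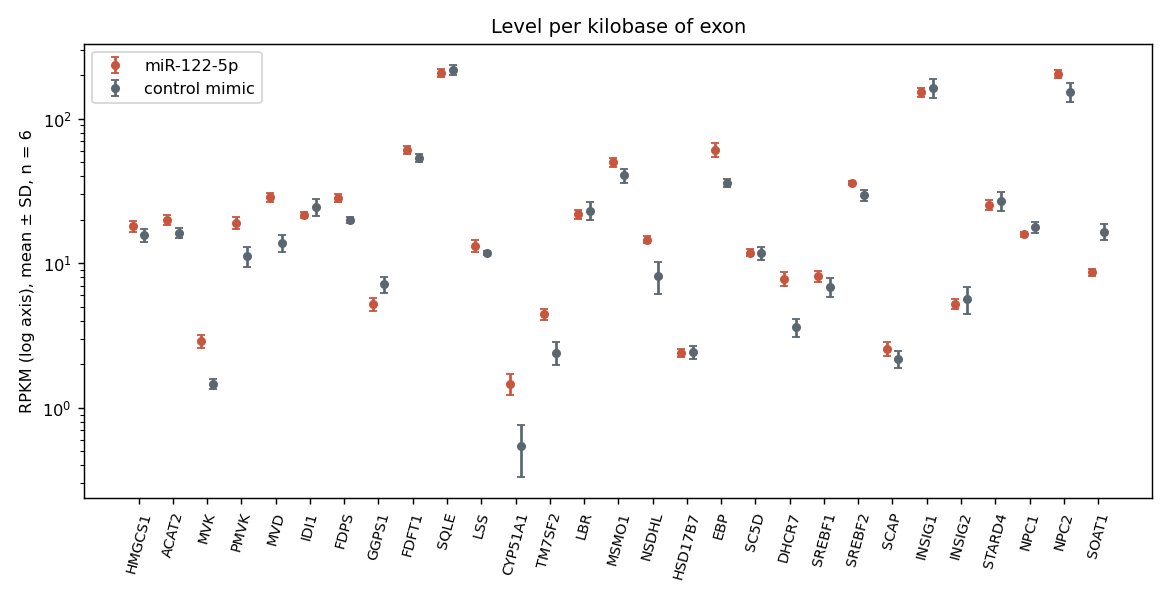
Mean level of each member in RPKM (log axis, ± SD over 6 libraries), with miR-122-5p left of the control mimic. SQLE, NPC2 and INSIG1 are above 150 RPKM in both groups, and CYP51A1, whose level is uncertain because of shared exons, is lowest.

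With miR-122-5p, 16 of the 29 members were called higher and 2 lower, while 24.3% of all tested genes were called higher and 26.2% lower. The enzymes accounted for 13 of the 16, with 1 enzyme lower. In these bulk samples fewer cells of a kind and less RNA per cell cannot be told apart. For 11 members every miR-122-5p library lay above every control library, which was so for 13.4% of tested genes, and for 1 every one lay below (16.1%). The median log2 fold change was 0.23 over the members and 0.01 over all tested genes. Of the 18 calls, 9 held in all 24 alternative settings: MVK, MVD, FDPS, ACAT2, MSMO1, EBP, DHCR7 and TM7SF2 higher, and SOAT1 lower.

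In the mevalonate branch 6 of 8 genes were called higher and 1 lower. MVK, which phosphorylates mevalonate, had 16.9, 18.001 and 21.5 CPM (lowest, median and highest of 6 libraries; CPM scales counts to library size, with TMM factors) with miR-122-5p, against 8.68, 9.24 and 10.7 with the control mimic. All 6 miR-122-5p libraries were above all control libraries. Its promoter, shown above, holds 5 CCAAT words. The log2 fold change was 0.98 ± 0.09 (SE, adjusted p = 1.82e-08), or 1.97-fold. It was 0.76 in the GC and length fit and 0.74 in the GC slope fit. MVK lies on chromosome 12 (109573255 to 109598117, hg38).

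MVD, which decarboxylates mevalonate diphosphate (chromosome 16, 88651935 to 88663161), had 120.5, 134.6 and 151.1 CPM with miR-122-5p, against 50.7, 66.5 and 74.1 with the control mimic. The groups did not overlap; the lowest control value was that of library 1. MVD rose by 1.04 ± 0.08 on the log2 scale (adjusted p = 1.69e-09), and by 0.62 in both the GC and length fit and the GC slope fit. PMVK, the phosphomevalonate kinase between MVK and MVD, had 20.6, 24.6 and 27.0 CPM with miR-122-5p, against 12.4, 13.6 and 17.6 in control libraries. Its groups were also apart. PMVK rose by 0.76 ± 0.10 (adjusted p = 2.60e-06), 0.45 in the GC and length fit, and its call ended in the GC slope fit (0.38, adjusted p = 0.0958).

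FDPS, which makes farnesyl diphosphate, had 100.1, 102.6 and 116.7 CPM with miR-122-5p, against 69.4, 73.5 and 77.8 with the control mimic. Here too the groups were apart, and the rise was 0.50 ± 0.06 (adjusted p = 1.09e-06), 0.33 in the GC and length fit and 0.47 in the GC slope fit. FDPS has 8 named pseudogenes, and a gene on the opposite strand covers 18.6% of its exon bases, so its counts are less certain.

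The entry steps moved less. HMGCS1, the cytosolic HMG-CoA synthase, had 80.1, 82.0 and 98.7 CPM with miR-122-5p, against 65.4, 72.8 and 82.8 with the control mimic. Only 2 of 6 miR-122-5p libraries were above every control library, and library 6 stood above the rest of its group. HMGCS1 rose by 0.20 ± 0.08 (adjusted p = 0.0322). That call ended without miR-122-5p library 6 (0.17, adjusted p = 0.0719) or without control library 2 (0.18, 0.0563), 3 (0.18, 0.0657) or 4 (0.20, 0.0522). It was larger in the GC and length fit (0.49, adjusted p = 9.37e-08) and in the GC slope fit (0.56, adjusted p = 0.000254).

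ACAT2, the cytosolic thiolase that makes acetoacetyl-CoA, had 76.9, 85.5 and 96.7 CPM with miR-122-5p, against 60.3, 70.5 and 76.9 with the control mimic. In 5 of 6 miR-122-5p libraries it was above every control library. It rose by 0.30 ± 0.07 (adjusted p = 0.00173), by 0.32 in the GC and length fit and by 0.56 in the GC slope fit. On the opposite strand SOD2, TCP1 and a noncoding RNA share 52.3% of its exon bases. SOD2 was abundant and was not called (1936 ± 195 CPM with miR-122-5p and 2289 ± 510 in control libraries, log2 fold change -0.24 ± 0.11, adjusted p = 0.0636). The strand setting of the counting is not given in the sources used here, so ACAT2 is uncertain.

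The other genes of the branch, IDI1 and GGPS1, were not called higher. IDI1, the isopentenyl diphosphate isomerase, was not called (94.1 ± 4.58 CPM with miR-122-5p and 106.8 ± 14.3 in control libraries; -0.18 ± 0.08, adjusted p = 0.0636), though it was called lower without control library 2 (-0.22, adjusted p = 0.0194) or 3 (-0.21, 0.0441) and stood at 0.09 in the GC and length fit and 0.23 in the GC slope fit. GGPS1, which makes the geranylgeranyl diphosphate used to prenylate proteins, had 17.5, 19.8 and 23.2 CPM with miR-122-5p, against 22.0, 28.5 and 30.7 with the control mimic. In 5 of 6 miR-122-5p libraries it was below every control library. GGPS1 fell by 0.45 ± 0.10 (adjusted p = 0.000417), by 0.18 in the GC and length fit (adjusted p = 0.0380), and it stood at 0.003 in the GC slope fit (adjusted p = 0.992). The genes ARID4B and TBCE cover 41.0% of its exon bases, mostly TBCE on the same strand, as ARID4B on the opposite strand covers 3.62%. ARID4B also fell, by 0.52 ± 0.09 (adjusted p = 5.65e-05). Neither entry of TBCE was called (0.29 ± 0.30, adjusted p = 0.437, and 0.05 ± 0.17, adjusted p = 0.832).

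**Figure D2:**
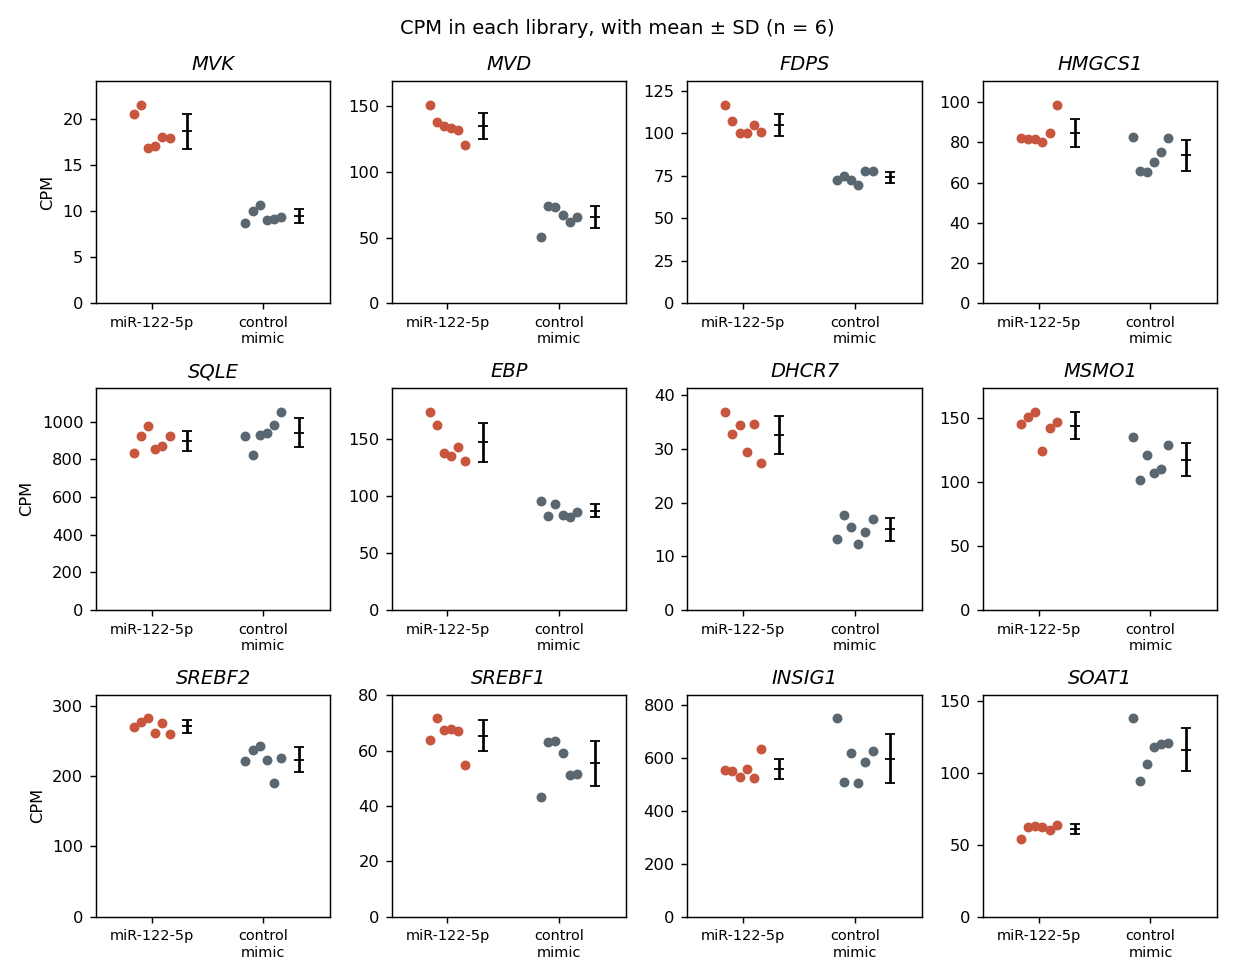
CPM of 12 members in each of the 6 miR-122-5p and 6 control mimic libraries, in library order, with mean ± SD beside the points. MVK, MVD, FDPS, EBP, DHCR7, SREBF2 and SOAT1 do not overlap between the groups, whereas SQLE and INSIG1 overlap throughout.

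Between farnesyl diphosphate and lanosterol 1 of 3 genes was called. FDFT1, the squalene synthase, had 281.7, 320.5 and 340.1 CPM with miR-122-5p, against 257.9, 275.1 and 308.7 with the control mimic. The groups overlapped, with 4 of 6 miR-122-5p libraries above every control library. It rose by 0.19 ± 0.07 (adjusted p = 0.0165) and by 0.25 in the GC and length fit, and the call ended in the GC slope fit (0.21, adjusted p = 0.197). SQLE, a rate-limiting enzyme of the pathway, ran from 832.5 to 980.2 CPM with miR-122-5p and from 821.8 to 1054 in control libraries. It was not called (-0.07 ± 0.07, adjusted p = 0.397), and 2 standard errors either side reach from -0.20 to 0.06. The sign turned in the GC and length fit (0.05, adjusted p = 0.482) and in the GC slope fit (0.10, adjusted p = 0.580). The value of the GC slope fit lay outside those limits, which hold only for the uncorrected fit. LSS, the lanosterol synthase, was not called (95.8 ± 9.21 CPM with miR-122-5p and 85.4 ± 3.01 in control libraries; 0.16 ± 0.07, adjusted p = 0.0541). The LSS call was gained in 8 of 24 alternative settings, such as DESeq2 (0.17, adjusted p = 0.0317) or leaving out miR-122-5p library 2 (0.21, 0.0181) or 3 (0.20, 0.0320) or control library 1 (0.18, 0.0335) or 2 (0.18, 0.0484), and its value was -0.05 in the GC and length fit and 0.17 in the GC slope fit.

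After lanosterol 6 of 9 enzymes were called higher and the other 3 were not called. DHCR7, which completes cholesterol from 7-dehydrocholesterol (chromosome 11, 71428193 to 71452868), had 27.4, 33.6 and 36.9 CPM with miR-122-5p, against 12.2, 14.996 and 17.6 with the control mimic. The groups were far apart. DHCR7 rose by 1.122 ± 0.10 (adjusted p = 7.81e-09), or 2.18-fold, by 0.89 in the GC and length fit and by 0.86 in the GC slope fit.

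EBP, the sterol isomerase (chromosome X, 48521158 to 48528716), had 131.2, 140.4 and 174.2 CPM with miR-122-5p, against 81.9, 84.9 and 95.3 with the control mimic. No libraries overlapped. The rise was 0.76 ± 0.08 (adjusted p = 5.18e-08), 0.65 in the GC and length fit and 0.68 in the GC slope fit.

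NSDHL, part of the complex that removes methyl groups at carbon 4 of the sterol, had 26.6, 29.8 and 30.7 CPM with miR-122-5p, against 11.6, 16.9 and 20.3 with the control mimic. Control libraries varied more than miR-122-5p libraries for this gene (coefficient of variation 5.81% with miR-122-5p and 25.03% in control libraries), but did not overlap them. NSDHL rose by 0.84 ± 0.13 (adjusted p = 1.01e-05), and by 0.83 in the GC and length fit; in the GC slope fit the call ended (0.47, adjusted p = 0.122).

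MSMO1, the methyl oxidase of the same complex, had 124.4, 146.2 and 155.0 CPM with miR-122-5p, against 101.7, 115.8 and 135.2 with the control mimic. It was above every control library in 5 of 6 miR-122-5p libraries. MSMO1 rose by 0.30 ± 0.08 (adjusted p = 0.00305), which became 0.60 in the GC and length fit (adjusted p = 9.12e-08) and 0.52 in the GC slope fit. HSD17B7, the ketosteroid reductase of that complex, had a low level and was not called (11.5 ± 0.71 CPM with miR-122-5p and 11.6 ± 1.17 in control libraries; -0.02 ± 0.09, adjusted p = 0.902). It was called higher in the GC and length fit (0.23, adjusted p = 0.0265) and not in the GC slope fit (0.18, adjusted p = 0.520). HSD17B7 has 2 named pseudogenes.

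The C14 sterol reductase step can be carried out by TM7SF2 or by LBR, which is also a receptor of the inner nuclear membrane. TM7SF2 had 13.8, 14.7 and 17.6 CPM with miR-122-5p, against 5.74, 8.17 and 10.1 with the control mimic, without overlap. It rose by 0.88 ± 0.12 (adjusted p = 2.19e-06), 0.42 in the GC and length fit (adjusted p = 0.00300) and 0.63 in the GC slope fit (adjusted p = 0.0364). LBR, which was more abundant per kilobase (21.8 ± 1.43 RPKM with miR-122-5p and 23.1 ± 3.32 in control libraries), was not called (-0.08 ± 0.08, adjusted p = 0.442). It was called higher in the GC and length fit (0.25, adjusted p = 0.00544) and not in the GC slope fit (0.15, adjusted p = 0.472).

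SC5D, which puts in the C5 double bond, was not called (66.1 ± 3.90 CPM with miR-122-5p and 65.4 ± 6.45 in control libraries; 0.02 ± 0.07, adjusted p = 0.872), but was in the GC and length fit (0.32, adjusted p = 3.68e-05) and in the GC slope fit (0.31, adjusted p = 0.0316). CYP51A1, the lanosterol demethylase, had 4.52, 5.00 and 6.96 CPM with miR-122-5p, against 1.39, 1.78 and 3.49 with the control mimic. The groups did not overlap, although miR-122-5p library 1 and control library 2 were far above the others of their groups. The log2 fold change was 1.42 ± 0.20 (adjusted p = 4.53e-06) and 1.66 in the GC and length fit, and the call ended in the GC slope fit (0.73, adjusted p = 0.122). It rests on 48 to 239 counts a library.

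Summed per kilobase within a library, the 8 mevalonate genes reached 139.5, 143.1 and 151.1 RPKM (lowest, median and highest) with miR-122-5p, against 104.9, 110.3 and 115.6 with the control mimic. The 9 enzymes after lanosterol summed to 159.3, 174.4 and 189.5 RPKM with miR-122-5p, against 120.6, 127.2 and 142.3 in control libraries. The largest parts of that sum were EBP (mean 61.1 with miR-122-5p and 36.2 in control libraries) and MSMO1 (49.8 and 40.6). For both sums, which have no GC correction, the groups were apart. The 3 genes between them, dominated by SQLE, summed to 267.7, 281.9 and 302.3 RPKM with miR-122-5p, against 256.5, 284.4 and 308.5 in control libraries, with overlap throughout.

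**Figure D3:**
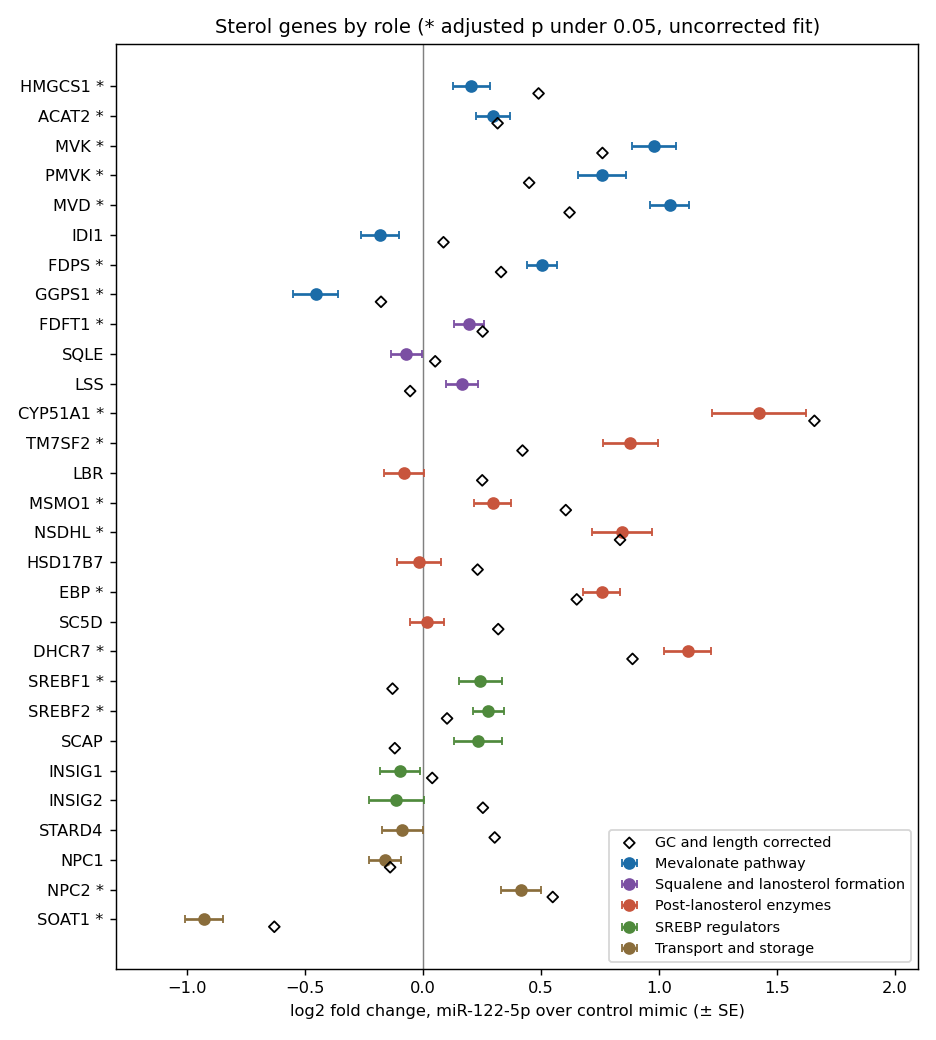
Log2 fold change, miR-122-5p over control mimic, of the 29 members by role (filled points, ± SE), with the value of the GC and length fit as open diamonds. The enzymes MVK, MVD, EBP, NSDHL and DHCR7 stay above 0.5 under both, as does CYP51A1, SOAT1 stays below -0.5, and SREBF1 crosses 0.

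Of the 5 regulators, 2 were called higher and the other 3 were not called. SREBF2, which encodes the factor SREBP2 that drives the sterol enzymes (chromosome 22, 41833079 to 41907308), had 260.0, 272.5 and 282.0 CPM with miR-122-5p, against 190.4, 224.3 and 243.4 with the control mimic. The groups did not overlap. Its promoter holds the sterol response element shown above. SREBF2 rose by 0.28 ± 0.06 (adjusted p = 0.00119), or 1.21-fold. That call ended in the GC and length fit (0.10, adjusted p = 0.0943) and in the GC slope fit (0.13, adjusted p = 0.406).

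SREBF1, whose SREBP1 products act mainly on fatty acid genes, had 54.8, 67.3 and 71.6 CPM with miR-122-5p, against 43.1, 55.4 and 63.5 with the control mimic. In 5 of 6 miR-122-5p libraries it was above every control library; library 6 was the exception. It was called (0.24 ± 0.09, adjusted p = 0.0313), and lost the call without miR-122-5p library 2 (0.22, adjusted p = 0.0699), 4 (0.24, 0.0533) or 5 (0.24, 0.0536), and without control library 1 (0.18, 0.0606), 5 (0.22, 0.0719), 6 (0.23, 0.0625) or both 1 and 6 (0.14, 0.160). Its direction turned in the GC and length fit (-0.13, adjusted p = 0.0623) and in the GC slope fit (-0.23, adjusted p = 0.1499).

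SCAP was not called (16.5 ± 1.89 CPM with miR-122-5p and 14.1 ± 1.83 in control libraries; 0.23 ± 0.10, adjusted p = 0.0650), and its value was -0.12 in the GC and length fit and -0.17 in the GC slope fit. It was called without miR-122-5p library 5 (0.27, adjusted p = 0.0470) or 6 (0.28, 0.0385) or control library 2 (0.28, 0.0305). INSIG1, itself a classical target of SREBP2, had 523.3, 550.2 and 631.7 CPM with miR-122-5p, against 502.7, 599.4 and 748.1 with the control mimic. The miR-122-5p libraries lay within the range of the control libraries. INSIG1 was not called (-0.10 ± 0.08, adjusted p = 0.347), and 2 standard errors either side reach from -0.27 to 0.07. The sign turned in the GC and length fit (0.04, adjusted p = 0.681) and in the GC slope fit (0.30, adjusted p = 0.0663). The value of the GC slope fit lay outside those limits, which hold only for the uncorrected fit. INSIG2, its relative that responds less to SREBP, was not called (20.7 ± 1.64 CPM with miR-122-5p and 22.4 ± 4.89 in control libraries; -0.11 ± 0.12, adjusted p = 0.444). INSIG2 stood at 0.25 in the GC and length fit (adjusted p = 0.0538) and 0.20 in the GC slope fit (adjusted p = 0.554).

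Of the 4 transport and storage genes 1 was called higher, 1 lower, and the other 2 were not called. SOAT1, which esterifies cholesterol for storage in droplets (chromosome 1, 179293714 to 179358680), had 54.0, 62.3 and 63.6 CPM with miR-122-5p, against 94.1, 119.1 and 137.7 with the control mimic. Every miR-122-5p library was below every control library. SOAT1 fell by 0.93 ± 0.08 on the log2 scale (adjusted p = 5.20e-09), to 0.525 of the control level. It fell by 0.63 in the GC and length fit (adjusted p = 3.90e-09) and by 0.55 in the GC slope fit (adjusted p = 0.000380).

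NPC2, the lysosomal lumen protein that hands cholesterol to NPC1, had 520.0, 566.4 and 608.2 CPM with miR-122-5p, against 311.3, 431.5 and 481.9 with the control mimic. The groups did not overlap, and control library 1 was the lowest. It rose by 0.41 ± 0.09 (adjusted p = 0.000380) and by 0.55 in the GC and length fit, but in the GC slope fit it stood at 0.07 (adjusted p = 0.746). NPC1, the membrane partner, was not called (160.5 ± 6.36 CPM with miR-122-5p and 179.6 ± 16.1 in control libraries; -0.16 ± 0.07, adjusted p = 0.0507), and was called lower without control library 5 (-0.21, adjusted p = 0.00838). NPC1 stood at -0.14 in the GC and length fit and -0.15 in the GC slope fit. STARD4, a soluble sterol carrier and SREBP2 target, was not called (144.8 ± 11.5 CPM with miR-122-5p and 153.9 ± 23.2 in control libraries; -0.09 ± 0.09, adjusted p = 0.421), but was called higher in the GC and length fit (0.30, adjusted p = 9.35e-05) and in the GC slope fit (0.34, adjusted p = 0.0299).

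**Figure D4:**
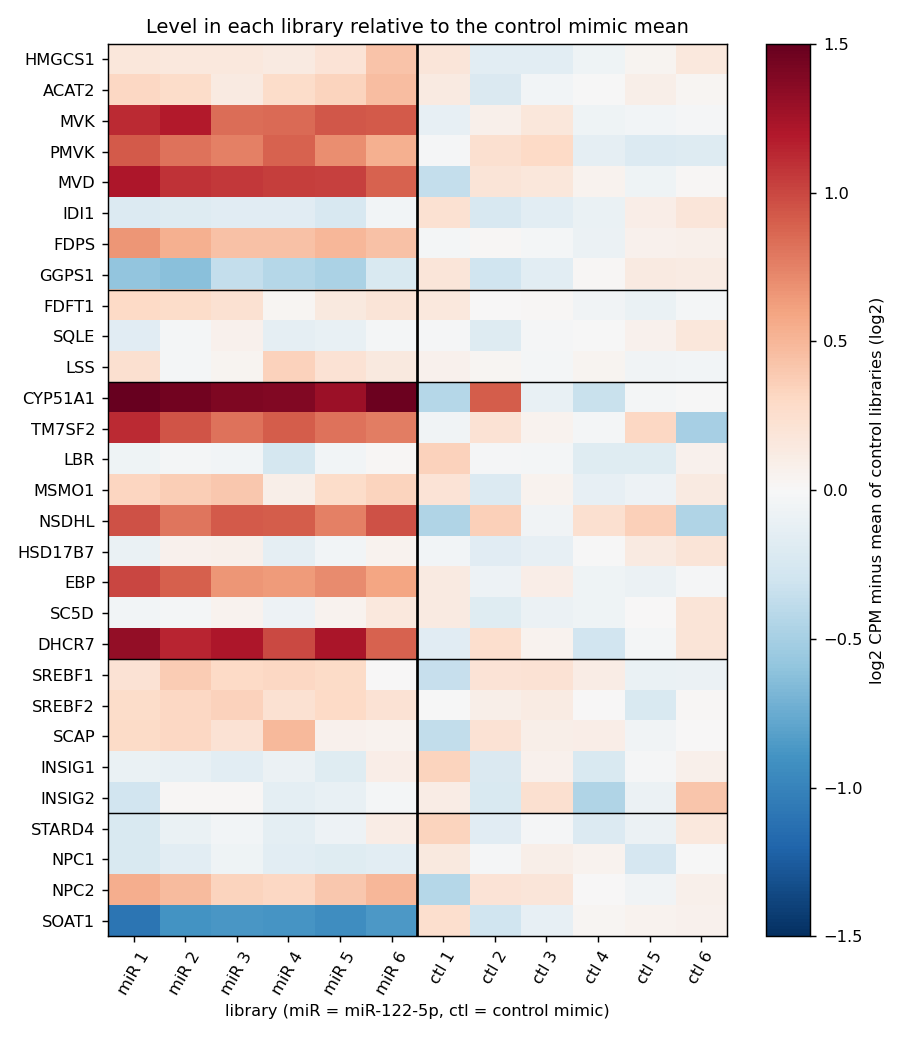
Log2 CPM of each member (rows, by role) in each library (columns), minus the mean of the control libraries; colours stop at 1.5. The rises of MVK, MVD, NSDHL, EBP and DHCR7 and the fall of SOAT1 are present in all 6 miR-122-5p libraries, and CYP51A1 is high in control library 2.

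The coefficient of variation of a member had a median of 7.38% over the miR-122-5p libraries and 12.7% over the control libraries, and was larger in the control group for 24 of 29 members. Control library 1 held the highest value of its group for 13 members and the lowest for 7. Without control libraries 1 and 6 together, 15 members were called higher and 2 lower.

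The members' values followed their GC content in part. Of the 5 members with a transcript GC content above 58.4%, 4 were called higher (median log2 fold change 0.76), where 50.8% of the 3093 genes above it were (median 0.39). Among the 15 between 41.3% and 58.4% 10 were called higher (median 0.30), against 21.4% of 9279 genes (median -0.01). Of the 9 below 41.3%, 2 were called higher and 2 lower (median -0.09), with 6.50% of 3093 genes called higher there (median -0.30). In the GC and length fit 18 members were called higher and 2 lower, against 23.0% and 23.7% of all tested genes. All 9 enzymes after lanosterol were then called higher, and the 5 regulators were not called. In the GC slope fit 11 members were called higher and 1 lower, against 7.25% and 12.2% of tested genes; 10 of the 11 were enzymes.

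**Figure D5:**
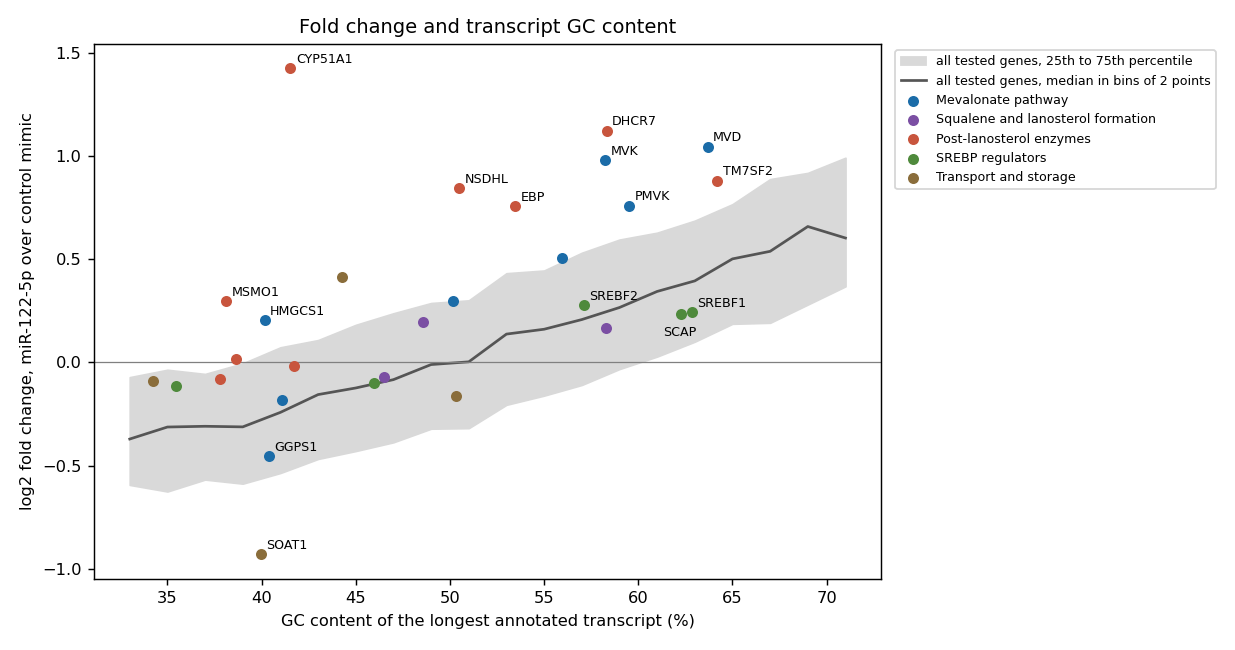
Log2 fold change against the GC content of the longest annotated transcript (%), for members (points, by role) and for all tested genes (line, median in bins of 2 percentage points; band, 25th to 75th percentile). The SREBF2, SREBF1 and SCAP points lie inside the band, whereas DHCR7, MVK, NSDHL, EBP and MSMO1 lie above it and SOAT1 below it.

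Other genes of the pathway came from lists written from general knowledge. Their counts stand beside 24.3% of all tested genes called higher and 26.2% called lower. Of 13 genes for SREBP cleavage and sterol-regulated degradation, 2 were called lower and 11 were not called (median -0.07). In the GC and length fit 3 were called higher and 1 lower. The falls were those of NPLOC4, an adaptor of the VCP segregase (110.7 ± 5.59 CPM with miR-122-5p and 129.5 ± 6.07 in control libraries; -0.23 ± 0.06, adjusted p = 0.00408), and the ubiquitin ligase RNF139 (-0.26 ± 0.08, adjusted p = 0.0126), whose value was -0.09 in the GC and length fit (adjusted p = 0.279). In the GC slope fit neither was called: NPLOC4 stood at -0.13 (adjusted p = 0.400) and RNF139 turned to 0.12 (adjusted p = 0.509). The SREBP proteases themselves, MBTPS1 (-0.06 ± 0.07, adjusted p = 0.544) and MBTPS2 (0.01 ± 0.09, adjusted p = 0.915), were not called, although MBTPS2 was called higher in the GC and length fit (0.38, adjusted p = 0.000299).

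In the isoprenoid branch and prenylation, 1 of 14 genes was called higher and 5 lower (median 0.01). The GC and length fit called 4 higher and 3 lower, and the GC slope fit 2 higher and 2 lower. COQ2, which joins the isoprenoid tail to the ubiquinone ring, had 7.58, 8.79 and 10.9 CPM with miR-122-5p, against 15.8, 16.8 and 19.6 with the control mimic. These values did not overlap, and COQ2 fell by 0.99 ± 0.10 (adjusted p = 4.78e-08). RABGGTA, a subunit of the Rab geranylgeranyl transferase, fell by 0.66 ± 0.08 (adjusted p = 6.59e-07). DHDDS, which makes the dolichol chain, rose by 0.25 ± 0.09 (adjusted p = 0.0199), a call lost when miR-122-5p library 1 was left out (0.19, adjusted p = 0.0639) and in the GC slope fit (0.15, adjusted p = 0.554).

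For intracellular sterol transport, 1 of 12 genes was called higher and 7 lower (median -0.28). The GC slope fit called 1 higher and 5 lower. Of the 7, the sterol-binding protein STARD5 lost its call in 9 of the 12 fits that leave out 1 library (adjusted p up to 0.126). It was not called in the GC and length fit (-0.22, adjusted p = 0.109) or the GC slope fit (-0.20, adjusted p = 0.581). Genes on the opposite strand share 68.6% of the exon bases of STARD5, so its counts are less certain. GRAMD1B, which carries cholesterol from the plasma membrane to the endoplasmic reticulum, had 6.89, 7.58 and 8.84 CPM with miR-122-5p, against 17.7, 22.4 and 25.2 with the control mimic. The groups were well apart, and it fell by 1.497 ± 0.106 (adjusted p = 1.94e-10). SCARB2, the lysosomal membrane protein LIMP-2, fell by 0.70 ± 0.06 (adjusted p = 5.57e-09), by 0.46 in the GC and length fit. TMEM97, a partner of NPC1 and an SREBP2 target, rose by 1.13 ± 0.22 (4.61 ± 0.30 CPM with miR-122-5p and 2.11 ± 0.79 in control libraries, adjusted p = 0.000186).

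Of 12 fatty acid genes driven mainly by SREBP1, 11 were tested, with 6 called higher and 2 lower (median 0.24). The GC and length fit called 6 higher and 2 lower, and the GC slope fit 6 higher and 1 lower. The 6 were not all the same genes. FASN (0.61, adjusted p = 5.59e-06) was not called in either (0.14, adjusted p = 0.0918, and 0.31, adjusted p = 0.107). ME1 (-0.12, adjusted p = 0.341) was called higher in both (0.18, adjusted p = 0.0306, and 0.40, adjusted p = 0.0194). FADS1, a desaturase, rose by 0.74 ± 0.07 (75.5 ± 3.43 CPM with miR-122-5p and 45.3 ± 4.55 in control libraries, adjusted p = 3.49e-08). ACACA, which makes malonyl-CoA, rose by 0.80 ± 0.08 (adjusted p = 7.16e-08). ACSL3, an acyl-CoA synthetase of lipid droplets, fell by 0.59 ± 0.07 (adjusted p = 5.40e-07), 0.26 in the GC and length fit, and LPIN1, a phosphatidate phosphatase, by 0.44 ± 0.11 (adjusted p = 0.00231). In the GC slope fit LPIN1 stood at -0.49 and was not called (adjusted p = 0.0832).

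Of 4 enzymes that make oxysterols, which restrain SREBP processing, or hydroxylate them further, 3 were tested, with 2 called higher and 1 lower. CH25H, the interferon-induced maker of 25-hydroxycholesterol, had 2.41, 2.91 and 3.78 CPM with miR-122-5p, against 10.1, 11.2 and 17.9 with the control mimic. Its groups did not overlap, and it fell by 2.03 ± 0.16 (adjusted p = 7.03e-10). CYP27A1, the sterol 27-hydroxylase, had 16.2, 21.7 and 23.5 CPM with miR-122-5p, against 7.18, 8.24 and 10.6 with the control mimic. It rose by 1.31 ± 0.11 (adjusted p = 3.15e-09). CYP7B1, which hydroxylates oxysterols further, rose by 0.38 ± 0.14 (adjusted p = 0.0287), and by 0.62 in the GC and length fit. Its call ended without miR-122-5p library 4 (0.27, adjusted p = 0.0927) or 6 (0.35, 0.0564), or without control library 2 (0.34, 0.0546) or 4 (0.33, 0.0648).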

How the data were processed

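The 12 libraries were deposited by the authors as a single table of raw counts per Ensembl gene, with no normalization. Per the submitters' processing notes, HISAT2 2.0.5, featureCounts 1.5.0-p3 and hg38 were used; the sources used here give neither settings nor strand. Columns named for miR-122 matched that group's titles, and those named nc were taken as the control mimic. In R 4.3.3, low-count genes were removed with filterByExpr and groups were compared with edgeR 4.0.16 (TMM factors, quasi-likelihood test, Benjamini-Hochberg adjustment over 15471 genes, threshold 0.05). CPM and RPKM (exon union length) were computed from the counts. The GC and length correction used natural splines with 4 degrees of freedom on the longest GENCODE 29 transcript, as offsets. Sequences are from RefSeq (GRCh38.p14) and GENCODE 29. Alternatives also used DESeq2 1.42.0 and limma 3.58.1.

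The members, lists and alternatives were chosen with earlier results of these data known. Every member is named, and from each list the called genes of smallest p, at most 2 in each direction. The proteases MBTPS1 and MBTPS2, STARD5, FASN, ME1 and the genes sharing exons with members were added after their values were seen. Same-numbered libraries of the groups showed little shared deviation (correlations from -0.105 to 0.0689), and the main fit did not pair them. Such correlations cannot exclude a weak effect shared by libraries of the same number. No pair of libraries in a group was close enough to be a repeat deposit (chi-square over its degrees of freedom 7.84 to 72.9). Some seed-match sites are not reported here.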

Additional observations from a re-analysis of the deposited data

Results flagged for a closer look

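In 58 sets of 6 libraries (29 members in each group), 7 held a library far from the others of its group by Dixon's test, where chance flags about 1 in 20 sets. With miR-122-5p, library 6 was high for HMGCS1 (98.7 CPM, the next at 84.5), IDI1 (102.8, the next at 94.2) and INSIG1 (631.7, the next at 558.3). Library 1 of that group was high for CYP51A1 (6.96 CPM, the next at 5.16) and low for SOAT1 (53.97, the next at 60.5), and library 4 was low for LBR (100.3, the next at 114.9). In the control group, library 2 was high for CYP51A1 (3.49 CPM, the next at 1.86).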

How the results depend on the processing

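Members called higher numbered 11 to 19 over 24 alternatives and members called lower 1 to 3. With the GC slope covariate 1 member was lower, and over all genes 1122 were higher and 1886 lower, so that 37.3% of calls were higher, against 48.1% without it. Leaving out 1 library gave 15 to 17 members higher and 2 to 3 lower. Of the members whose value changed sign, GGPS1 and SREBF1 are called without correction and the others are not. With the GC and length correction the sign changed for IDI1 (0.0863), SQLE (0.0512), LSS (-0.0549), LBR (0.25), HSD17B7 (0.23), SREBF1 (-0.13), SCAP (-0.12), INSIG1 (0.0387), INSIG2 (0.25) and STARD4 (0.30). Combined with the replicate number as a block, the correction gave 0.0882, 0.0516, -0.0581, 0.25, 0.23, -0.13, -0.12, 0.0463, 0.27 and 0.31 for the same genes. The GC slope covariate gave IDI1 0.23, GGPS1 0.0028, SQLE 0.0994, LBR 0.15, HSD17B7 0.18, SREBF1 -0.23, SCAP -0.17, INSIG1 0.30, INSIG2 0.20 and STARD4 0.34. HSD17B7 was at 0.0266 with library totals and 0.0053 without a low-count filter. Without control libraries 1 and 6 together, LBR was at 0.0342, HSD17B7 at 0.0259, INSIG1 at 0.0148, INSIG2 at 0.0303 and STARD4 at 0.0485. Without 1 library, HSD17B7 ran from -0.0400 to 0.0319, SC5D from -0.0094 to 0.0636 and LBR from -0.12 to 0.0007. The cause was not tested for any of these. The replicate block alone gave 16 members higher and 2 lower and changed no member's call. At an adjusted p under 0.01, HMGCS1, FDFT1 and SREBF1 were no longer called.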
